A study of Mus musculus with 22 samples.

Results

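The genes described here are 39 mouse genes of the antiviral interferon response, listed by symbol and sorted by what their proteins do. The list was drawn up with earlier results of these data known. Counts of its genes beside the share of all genes are therefore a description and not an independent test. A gene was measured where a probe set of the array was annotated to its symbol alone, and the probe set with the highest mean signal stood for it. That held for 37 of the 39 genes, among 18193 genes on the array. The probe set of Isg15 carries a second symbol and Ifi44 was not matched, so neither is analysed here. All 37 passed the filter on dim genes in the cells, among 15534 genes in all.

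Interferons are secreted when a cell senses viral nucleic acid or other danger signals. They bind receptors on the same and neighbouring cells, where the kinases Jak1 and Tyk2 activate transcription factors. A complex that holds Stat2 and Irf9 then binds a short DNA sequence, the interferon-stimulated response element, before the start of its target genes. Irf1 and Irf7 bind related sequences and extend the response. The proteins made in this way bind or degrade viral RNA, trap virus particles and tag other proteins with the ubiquitin-like protein ISG15. In several cell types the same genes are also known to respond to tumour necrosis factor alpha (TNF) through interferon beta that the cells release themselves.

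The cells were smooth muscle cells dispersed from the suprarenal aorta of male C57BL/6 mice without tenascin C (TNC-KO), an extracellular matrix protein of injured and remodelling tissue. All 4 groups of cells therefore lacked their own TNC. They received no addition (3 arrays), TNF at 10 ng/mL (3 arrays), exogenous TNC at 10 µg/mL (4 arrays) or both (4 arrays), each array with RNA of a single culture. The labels do not say how many mice the cultures came from, and the p-values measure the spread between these cultures. The other 8 arrays hold RNA pooled within a condition, 1 array per pool, from suprarenal or infrarenal aorta of male C57BL/6 mice of wild type (WT) or TNC-KO genotype. Each untreated pool came from 5 mice. Each treated pool came from 8 mice that had 0.5 M CaCl2 laid on the infrarenal aorta and angiotensin II infused at 1 µg/min/kg for 1 week, called CaAngII below. Ages are not given in the labels.

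Signals are the deposited linear intensities of the array and were compared on a log2 scale. A probe set's signal has no common scale with that of another, so treatments and pools are compared within a gene or within the same sum of markers. Such sums weigh bright probe sets most, and the brightest gene of a class is only a choice of which values to print. Tnc itself read 66.3 to 144 on the 14 cell arrays, 257.5 to 488.7 in the TNC-KO pools and 1805 to 2699 in the WT pools. All 8 smooth muscle markers lay above the 30th percentile of probe sets on every cell array, and their summed signal was 51910 to 55120 with no addition, 25490 to 27990 with TNF, 39340 to 41790 with TNC and 26660 to 29910 with both. Of 12 macrophage markers, Ptprc, Fcgr1, C1qa, Mrc1 and Trem2 stayed at or below that percentile on at least 1 array of every group of cells. The macrophage sum was 931.6 to 1463 with no addition, 1054 to 1118 with TNF, 2135 to 3204 with TNC and 2297 to 2422 with both. Among them Cd14 read 93.7 to 134.5 with no addition, 158.2 to 200.9 with TNF, 1060 to 1957 with TNC and 981.4 to 1224 with both. The other 11 summed to 797.1 to 1337, 853.5 to 959.6, 977.5 to 1247 and 1170 to 1409 in the same groups. C1qa and Fcgr1, near background, were lower with both additions than with TNF alone, by −3.01 and −1.23 on the log2 scale (adjusted p = 0.00853 and 0.0376). C1qb, Tyrobp and Ptprc also had lower means with both. The means of Cd68, Csf1r, Adgre1, Lyz2, Cd14, Mrc1 and Trem2 were higher with both. Cd68 averaged 133.3 with both against 83.1 with TNF alone, and Lyz2 699.5 against 389. Of 4 plasmacytoid dendritic cell markers summed without Bst2, which is among the genes described, Siglech and Ccr9 were at or below the percentile on at least 1 array of every group, except Siglech with TNF. Their sum was 5108 to 5537 with no addition, 5721 to 5959 with TNF, 6127 to 6853 with TNC and 6075 to 7049 with both. Tcf4 made up most of it, at 5061 to 5471, 5610 to 5840, 6024 to 6781 and 6002 to 6932 in these groups. Siglech, near background, read 11.7 to 27.4 with no addition, 30.9 to 36.9 with TNF and 7.58 to 22.3 with both, and its change with TNC under TNF was −1.43 (adjusted p = 0.0405). Irf8 of the same list rose with TNF by 1.16 (adjusted p = 0.00657), and TNC under TNF changed it by −0.38 (adjusted p = 0.32). Tcf4 averaged 6422 with both against 5711 with TNF alone, and Ccr9, near background, 8.3 against 7.6. All 5 fibroblast markers with no addition, and all but Pi16 in the other groups, lay above the percentile, and their sum was 8531 to 10210, 22340 to 23390, 23560 to 25590 and 27070 to 29340 in the same order of groups. Pdgfra and Dcn among them rose with TNF by 1.64 and 1.16. The means of Lum and Dpt were also higher with TNF, and that of Pi16, near background, was lower, at 24.7 against 39.4. All 6 endothelial markers lay above the percentile on every cell array, with sums of 6515 to 7226, 7283 to 7832, 8727 to 9817 and 7139 to 7561. The untreated suprarenal TNC-KO pool shares segment and genotype with the cells. Its sums were 91080 for smooth muscle, 33190 for macrophage, 41970 for fibroblast and 5183 for endothelial markers. Each smooth muscle marker except Lmod1 read lower on every cell array than in that pool, such as Myh11 at 27.9 to 407 against 14220. Whether the cultures held other cell types was not tested. The part of these markers in the results below was not tested.

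Sequence before the start was at hand for 29 of the 39 genes, 27 of them measured, in the RefSeq promoters of build GRCm38.p6, which hold 250 bases before and 50 after each start. No promoter sequence was used here for Oas2, Dhx58, Zbp1, Mx1, Mx2, Usp18, Parp9, Parp14, Ifi27 and Rtp4. The core of the response element was searched as GAAANNGAAA on either strand, that is a pair of GAAA repeats with 2 bases between them. It was found for 9 of the 27 measured genes (33.3%), against 3.99% of all 27025 genes in the table and 3.44% of its 32851 promoters. These genes were Ifit1, Ifit3, Oas3, Ifih1, Eif2ak2, Rsad2, Bst2, Trim21 and Trim30a. The gamma-activated site TTCNNNGAA, which reads the same on both strands, was found for 6 of the 27 (22.2%), namely Ifit2, Eif2ak2, Adar, Isg20, Bst2 and Ifi35, against 9.6% of all genes. Eif2ak2 and Bst2 held both. A match describes letters and not a bound site, and its absence covers only this window. The windows below show the core, in capitals, before the start of 4 genes whose TNF responses are described next, 1 from each of 4 role classes and each 5′ to 3′ on the strand of its gene. The Ifit3 window around its match lies inside the annotated gene, so Ifit1 stands for that class.
Ifit1: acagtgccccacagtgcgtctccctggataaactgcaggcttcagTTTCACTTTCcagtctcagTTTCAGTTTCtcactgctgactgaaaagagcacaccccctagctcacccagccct
Oas3: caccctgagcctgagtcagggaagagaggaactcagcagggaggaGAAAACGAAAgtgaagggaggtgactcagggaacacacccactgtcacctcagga
Rsad2: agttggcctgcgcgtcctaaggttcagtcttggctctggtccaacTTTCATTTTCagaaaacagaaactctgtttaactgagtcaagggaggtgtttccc
Bst2: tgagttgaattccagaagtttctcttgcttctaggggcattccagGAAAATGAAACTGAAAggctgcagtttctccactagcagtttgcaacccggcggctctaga
The Ifit1 window is chr19:34640740-34640858 on the plus strand, with matches that begin 104 and 85 bases before the start. The Oas3 window is chr5:120777680-120777779 on the minus strand, with its match 75 bases before the start used, which lies 25 bases inside the annotated gene. The Rsad2 window is chr12:26456518-26456617 on the minus strand, with its match 120 bases before the start. The Bst2 window is chr8:71537542-71537647 on the minus strand, with overlapping matches 130 and 124 bases before the start. In the cells TNF alone changed the 9 genes with the core by 1.72 to 5.54 on the log2 scale and the 18 genes without it by 1.13 to 4.89, so the ranges overlapped.

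The first comparison asks what TNF did in cells without TNC. It raised 36 of the 37 genes and lowered only Ifi27. Across all genes tested 14.3% were called higher and 20.3% lower, a call being a Benjamini-Hochberg adjusted p under 0.05 over all genes in limma. Of the called genes 41.2% were higher, or 57.4% when all arrays were brought to 1 median signal (median centring). The median change of the 37 genes was 3.03 on the log2 scale, against −0.06 over all genes. In these 36 genes every array with TNF was above every array without, as in 20.5% of all genes tested, and in Ifi27 every one was below, as in 29.5%. Oas3 and Epsti1 were below the 30th percentile on all 3 arrays with no addition and Zbp1 on 1 or more of them. Oas3 passed the filter on only 4 cell arrays, all of them with TNF, so its calls were partly set by the filter. The other 34 genes were above the 30th percentile on every cell array, and of these 33 were called higher and 1 lower.

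The IFIT proteins bind viral RNA and hinder its translation. Ifit2 read 737, 731 and 755 with no addition and 13837, 14707 and 14971 with TNF. It rose 19.6-fold (log2 change 4.29, SE 0.083, adjusted p = 4.29e-11). Ifit3, the brightest of the class, read 2585, 1689 and 2120 with no addition and 19180, 18420 and 20173 with TNF (log2 change 3.20, SE 0.24, adjusted p = 1.41e-06). Ifit1 rose by 3.50 (SE 0.34). No array without TNF came near those with it for any of the 3.

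The OAS enzymes make a short oligoadenylate that turns on RNase L, and the OAS-like proteins share their fold. All 4 measured members rose, by 3.70 to 4.35. Oasl2, the brightest, read 818, 283 and 618 with no addition and 7521, 7737 and 7998 with TNF (log2 change 3.89, SE 0.37). Oas3 read 9.33, 8.74 and 7.65 with no addition, below the 30th percentile of 22.1 to 23.1 there, and 117, 152 and 123 with TNF. Its change of 3.93 starts from a signal near background and was 2.00 after 32 was added to every value.

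Among the sensors and editors of viral nucleic acid all 5 rose. Ifih1, which encodes the RNA sensor MDA5, read 899, 627 and 820 with no addition and 6246, 6172 and 6538 with TNF (log2 change 3.03, SE 0.13). Zbp1, a sensor of Z-form nucleic acid that can start necroptosis, read 2.84, 21.8 and 46.1 with no addition and 3681, 4222 and 3698 with TNF. That was the largest change of the set, 8.09 (SE 0.77), or 6.21 after 32 was added to every value. Adar, the enzyme that edits adenosine in RNA, had the smallest change of the 37, 1.13 (SE 0.17), with 806, 592 and 598 against 1412, 1290 and 1650. Further probe sets of Adar changed by 2.305 and 1.579, so that place depends on the probe set used.

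The Mx proteins are GTPases that block viral capsids. Mx1 read 45.3, 30.9 and 55.9 with no addition and 1381, 1581 and 1606 with TNF (log2 change 5.15, SE 0.24), and Mx2 rose by 2.89. Rsad2, which encodes viperin, an enzyme that makes a chain-ending nucleotide, lies beside Cmpk2, a nucleotide kinase. Rsad2 read 321, 117 and 167 with no addition and 8249, 8680 and 8835 with TNF (log2 change 5.54, SE 0.34). Cmpk2 rose by 4.89 (SE 0.17). Zbp1, Rsad2, Mx1 and Cmpk2 had, in that order, the largest changes of the 37 genes. After 32 was added to every value Cmpk2, at 4.66, came before Mx1, at 4.365.

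All 5 measured genes of the ISG15 system rose. Usp18, which removes ISG15 and damps receptor signalling, read 1647, 692 and 1045 with no addition and 10014, 10297 and 10500 with TNF (log2 change 3.28, SE 0.39). The activating enzyme Uba7 rose by 2.83, the conjugating enzyme Ube2l6 by 2.76, the ligase Herc6 by 3.96 and Trim25 by 1.35. The ADP-ribosylation genes Parp9, Parp12 and Parp14 and the ubiquitin ligase Dtx3l rose by 2.57 to 4.12. Parp12, the brightest of them, read 1089, 818 and 918 with no addition and 5685, 5560 and 5385 with TNF.

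Of the other effectors, Bst2 encodes tetherin, which holds budding virus at the cell surface. It read 7620, 6087 and 6994 with no addition and 22537, 22971 and 22527 with TNF (log2 change 1.72, SE 0.082). The brightest probe set on a cell array read 26914 to 33291, so Bst2 with TNF lay near the top of the signal range. Isg20, an RNA exonuclease, rose by 3.76, and Trim30a, Helz2, Samd9l and Trim21 by 1.99 to 3.19. Lgals3bp, a secreted glycoprotein, read 6368, 4882 and 6057 with no addition and 14441, 13883 and 14708 with TNF (log2 change 1.32, SE 0.11).

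Ifi27, which encodes a small mitochondrial membrane protein, went the other way. It read 7487, 6273 and 7100 with no addition and 2463, 2276 and 2226 with TNF, a 2.99-fold lower level (log2 change −1.58, SE 0.092, adjusted p = 1.50e-07). A second probe set of Ifi27 changed by −1.66. Over the genes with several probe sets, all 29 further probe sets had the sign of the one used here.

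**Figure D1:**
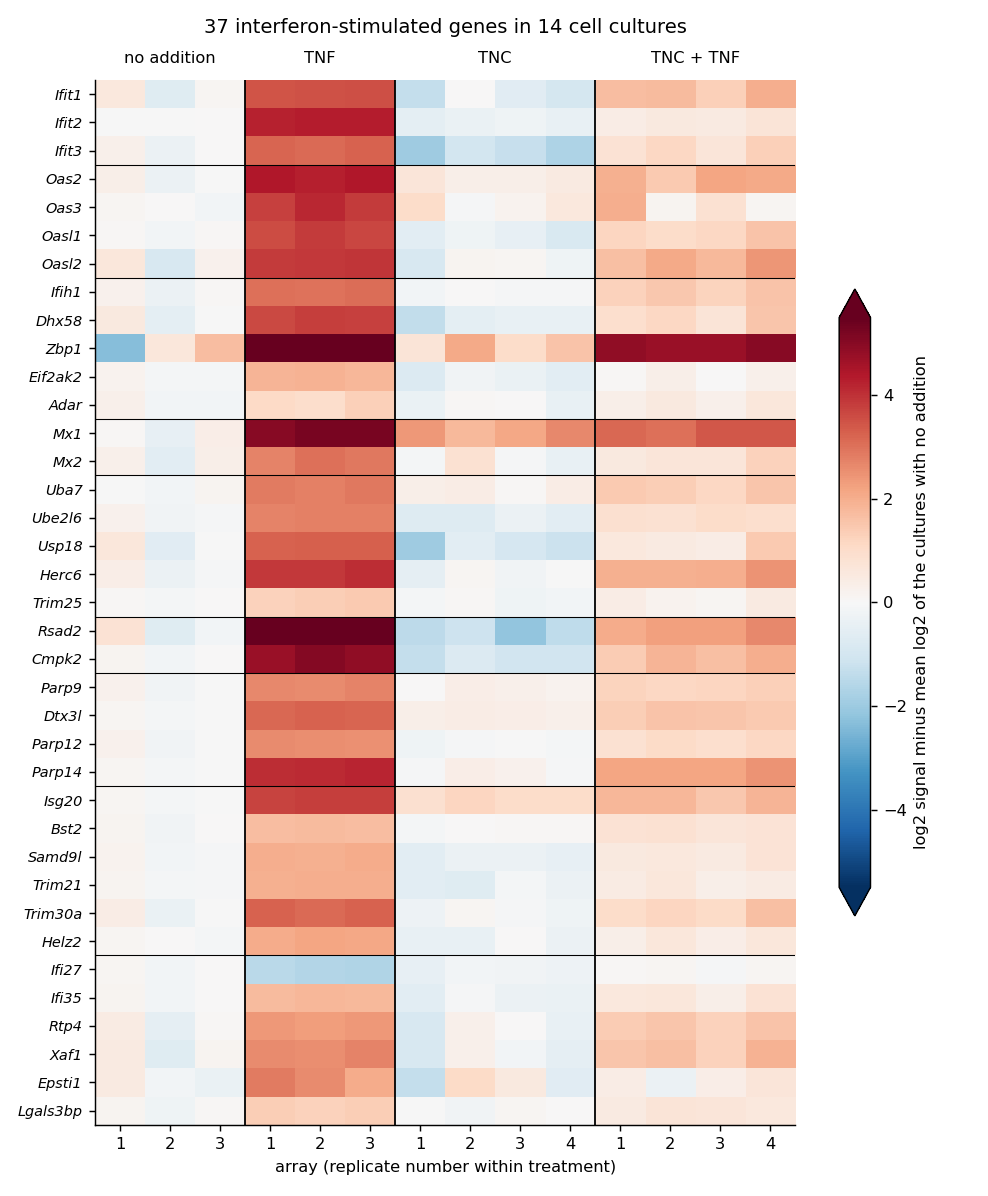
Log2 signal of the 37 genes (rows, grouped by role) on the 14 cell arrays (columns, by treatment), minus the mean log2 signal of the 3 cultures with no addition. Red is higher and blue lower. With TNF 36 genes are red and Ifi27 is blue. With TNC and TNF the colours are paler, and with TNC alone they are mixed. Zbp1 with TNF lies beyond the colour scale.

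The second comparison asks what TNF did when TNC was present. TNF then raised 34 of the 37 genes and lowered none, against 9.6% of all genes called higher and 12.5% called lower. The median change was 1.10, and over all genes −0.02. Rsad2 had the largest change, with 68.1, 84.5, 40.4 and 70.7 under TNC alone and 767, 879, 889 and 1142 under both (log2 change 3.84, SE 0.29, adjusted p = 4.48e-06). Ifi27 also rose here, from 5031, 6210, 6051 and 5796 to 7321, 7513, 6657 and 7409, by the smallest change of the set, 0.33 (SE 0.08, adjusted p = 0.0123). Oas3, Mx2 and Epsti1 did not pass, with changes of 0.35, 0.72 and 0.38 and overlapping arrays. Adar did not pass when all its probe sets were averaged, and neither did Parp14. Further probe sets of Dhx58 and Adar had the opposite sign.

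**Figure D2:**
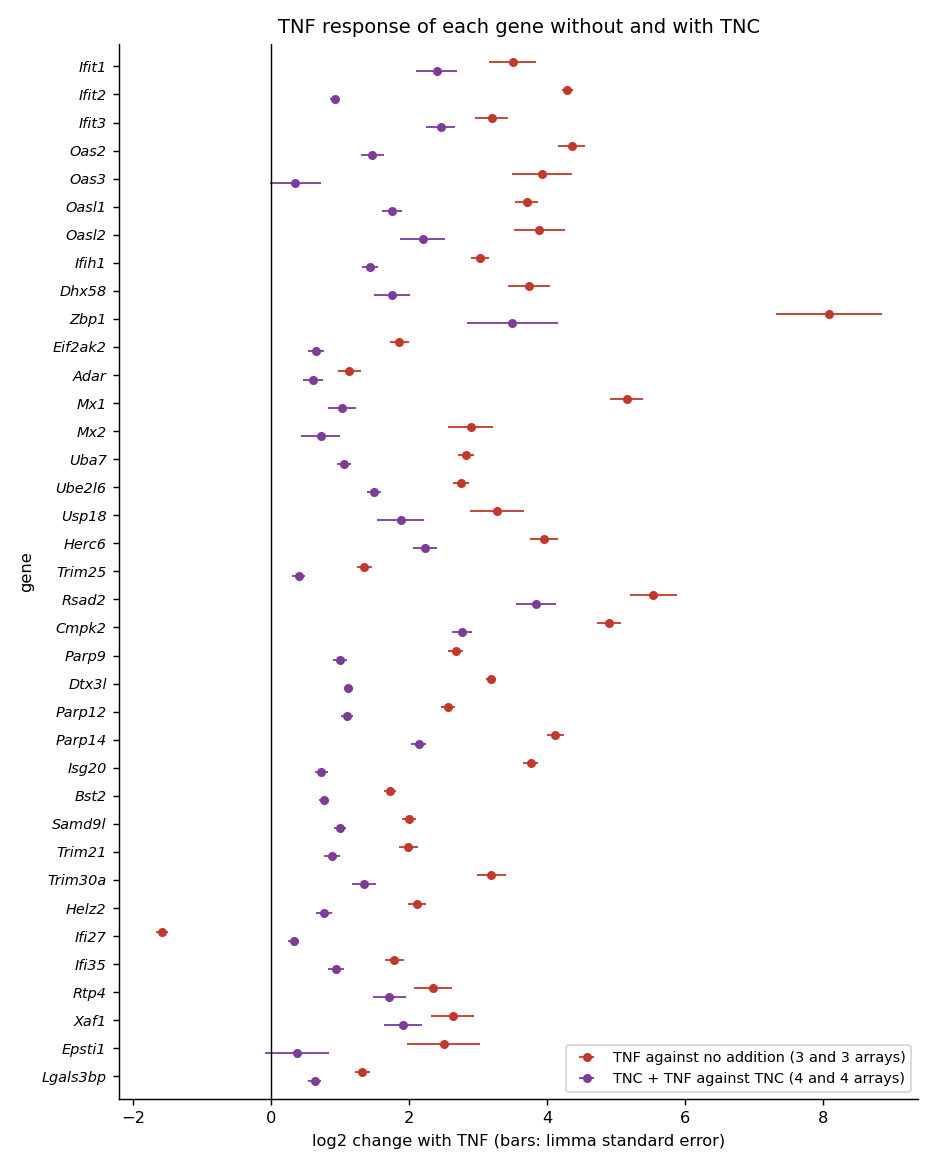
Log2 change with TNF for each of the 37 genes, without TNC (red, 3 against 3 arrays) and with TNC (purple, 4 against 4 arrays). Bars are the standard errors of the limma fit. The purple point lies left of the red one for every gene except Ifi27, whose red point is at −1.58 and purple point at 0.33.

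The difference between these TNF effects was tested as an interaction. For 29 genes the effect was smaller with TNC, and for Ifi27 it was higher. Among all genes 9.01% were called lower and 9.81% higher in this test. Median centring of the arrays turned 1524 higher and 1399 lower calls into 791 and 1238. The median difference of the 37 genes was −1.67, against 0.04 over all genes. The largest, −4.59 (SE 1.01), was that of Zbp1, −3.54 after 32 was added to every value. Mx1 followed with −4.12 (SE 0.31, adjusted p = 5.51e-06), then Ifit2 with −3.36 and Isg20 with −3.04. After 32 was added to every value the TNF change of Mx1 was 4.365 without TNC and 0.919 with it. Oas3 gave −3.57, but it was below the 30th percentile on every array with no addition and with TNC, and after 32 was added to every value it gave −1.86. Ifi27 differed by 1.91 (SE 0.12, adjusted p = 1.58e-06).

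The 7 genes without a call in this test were Adar, Epsti1, Ifit1, Ifit3, Rtp4, Usp18 and Xaf1. Their differences ran from −1.40 for Usp18 to −0.52 for Adar (SE 0.22), apart from Epsti1, near background, with −2.12, or −1.25 after 32 was added to every value. Further probe sets of Adar gave −1.494 and −1.762. Of the 22 alternatives 5 called Epsti1, 4 called Usp18 and 1 called Adar. Among these, leaving out the first culture with TNC called Epsti1 and Usp18, and leaving out the first with no addition or the fourth with both called Usp18. Ifit1 rose with TNF by 3.50 without TNC and by 2.40 with it, a difference of −1.10 (SE 0.45, adjusted p = 0.122). The corresponding values for Ifit3 were 3.20, 2.46 and −0.74 (SE 0.32, adjusted p = 0.144). Ifit2 of the same cluster rose by 4.29 and by only 0.93. Whether Ifit2 differs from Ifit1 and Ifit3 was not tested. The call for Oasl2 was lost in 10 of the 14 fits that left out an array, and that for Rsad2 without the third culture with no addition.

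With TNF present on both sides, TNC lowered 36 of the 37 genes and raised Ifi27. Among the 34 genes above the 30th percentile on every cell array, 33 were called lower and 1 higher. Of all genes 11.9% were called lower and 16.3% higher. The higher share of all calls was 57.8%, or 74.2% with median centring. The median change of the 37 genes was −1.85, and over all genes 0.00. In these 36 genes every array with both additions was below every array with TNF alone, as in 16.1% of all genes tested. The largest change was that of Ifit2, at 990, 1088, 1035 and 1195 with both against 13837, 14707 and 14971 with TNF alone. It was 13.5-fold lower (log2 change −3.75, SE 0.077, adjusted p = 3.45e-10).

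The neighbours Rsad2 and Cmpk2 both fell, with changes of −3.24 (SE 0.32) and −3.16 (SE 0.16). Zbp1 read 416, 380, 378 and 452 with both, a change of −3.25 (SE 0.72). In the OAS family all 4 genes fell. The changes were −2.44 for Oas2, −2.47 for Oasl1 and −1.90 for Oasl2. That of Oas3 was −3.14, but its signal with both additions was 9.26 to 34.6, near background, and after 32 was added to every value it was −1.75, the smallest of the family. Isg20 read 1089, 1077, 868 and 1131 with both and 3988, 4287 and 4282 with TNF alone (log2 change −2.01, SE 0.10). Both Mx genes fell, with changes of −1.89 for Mx1 and −2.11 for Mx2. For Epsti1, at −2.21, a further probe set had the opposite sign.

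At the other end, Adar changed by −0.69 (SE 0.16, adjusted p = 0.00685), with 812, 966, 806 and 1009 under both. Its further probe sets changed by −1.718 and −1.752, so here too its place depends on the probe set used. Lgals3bp changed by −0.71, Rtp4 by −0.90, Bst2 by −0.96 and Xaf1 by −1.04. Rtp4 encodes a chaperone of cell-surface receptors and Xaf1 a cell death factor. The calls of both were lost without any one of the 3 arrays with TNF alone and without the third array with both additions. Ifi27 rose 3.11-fold (log2 change 1.64, SE 0.086, adjusted p = 2.63e-07), from 2463, 2276 and 2226 to 7321, 7513, 6657 and 7409.

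**Figure D3:**
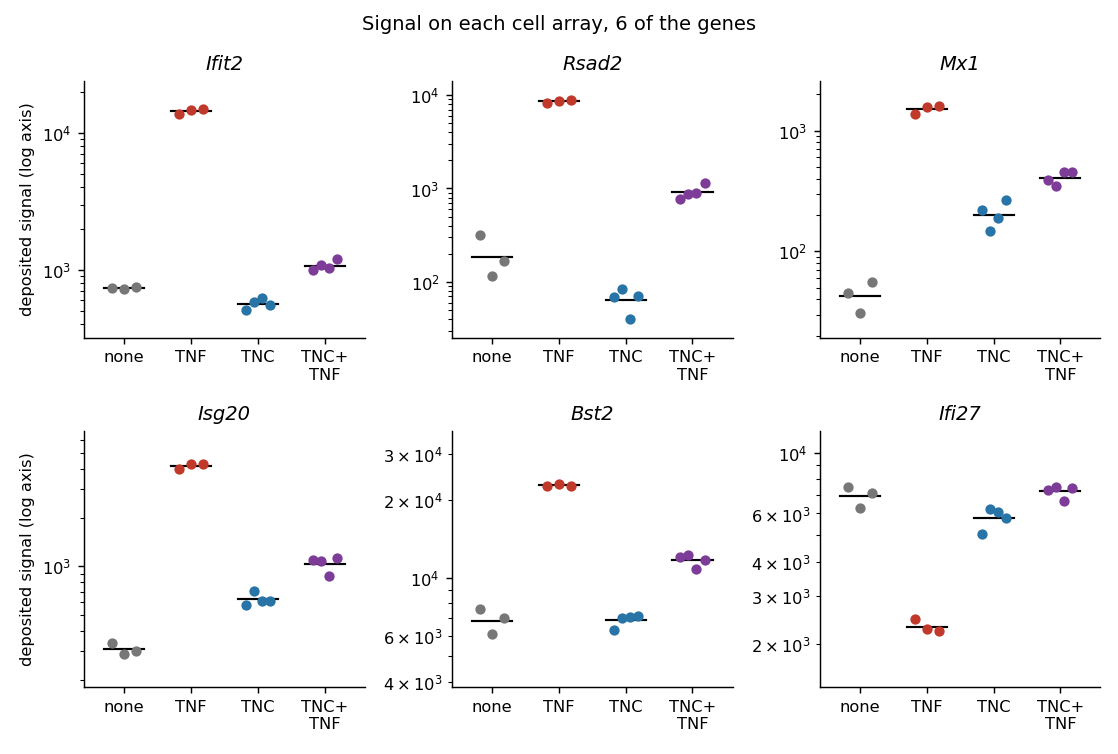
Deposited signal, on log axes, of Ifit2, Rsad2, Mx1, Isg20, Bst2 and Ifi27 on each of the 14 cell arrays. Points are arrays and lines are the geometric means of each treatment. In the first 5 genes the TNF arrays are highest and those with both additions come next. Ifi27 is lowest with TNF, at 2226 to 2463.

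TNC without TNF changed fewer of these genes and in both directions. It raised Mx1, Isg20 and Dtx3l and lowered 11, while 23 did not pass. Of all genes 16.1% were called higher and 15.7% lower. Mx1 had the largest change, at 220, 146, 189 and 266 with TNC against 45.3, 30.9 and 55.9 with no addition (log2 change 2.23, SE 0.22, adjusted p = 1.92e-05). It was 1.63 after 32 was added to every value. Isg20 read 575, 706, 612 and 616 against 336, 287 and 303 (log2 change 1.02, SE 0.10, adjusted p = 1.78e-05). Dtx3l read 681, 731, 702 and 674 against 588, 514 and 547 (log2 change 0.34, SE 0.064, adjusted p = 0.00173). In these 3 genes every array with TNC was above every array with no addition, as in 19.8% of all genes tested.

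The lowest changes were those of Rsad2, at −1.54 (SE 0.32, adjusted p = 0.00336), and Ifit3, at −1.49 (SE 0.23, adjusted p = 0.00048). Ifit3 read 548, 1035, 860 and 647 with TNC. Usp18 changed by −1.15, Cmpk2 by −1.04, Ube2l6 by −0.58 and Ifit2 by −0.39, and Oasl1, Eif2ak2, Trim21, Samd9l and Ifi27 by −0.52 to −0.27. Bst2 had the smallest change, 0.01 (SE 0.077), with 6325, 7050, 7102 and 7150 against 7620, 6087 and 6994.

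These counts depended on the scaling and on single arrays. The median change of the 37 genes was −0.17, against −0.03 over all genes. Median centring made these 0.00 and 0.14, with 6 of the genes called higher and 5 lower. Among all called genes 76.2% were then higher, in place of 50.7%. The count of lower genes was 6 without the first culture with no addition, 7 without the third and 7 without the first with TNC. The count of higher genes was 5 without the first and 5 without the third culture with no addition. Under all 22 alternatives tried, 7 genes kept their call: Mx1, Isg20 and Dtx3l upward, and Rsad2, Ifit3, Ube2l6 and Ifit2 downward.

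The cells with both additions were last compared with those that had none. In this comparison 31 of the 37 genes were higher and none lower, against 20.7% of all genes called higher and 22.5% called lower. The higher share of all calls was 47.9%, or 71.4% with median centring. The median change was 1.07, and over all genes −0.06. Zbp1 again had the largest change, 4.84 (SE 0.72), or 3.05 after 32 was added to every value. Mx1 was 9.56-fold higher, at 387, 349, 458 and 452 with both. Eif2ak2, Epsti1, Ifi27, Mx2, Oas3 and Usp18 did not pass. Of the 31 calls 27 held under all 22 alternatives. That of Adar was lost under 8, Trim25 under 6, and Dhx58 and Trim21 under 1 each. Leaving out the second culture with no addition ended the calls of Adar, Trim21 and Trim25, and leaving out the third those of Adar and Trim25. The call of Trim25 was also lost without the first with no addition and without the first or the fourth with both additions. That of Adar was also lost without the second or the fourth with both, and without the first with TNF. Mx2 gained a call under 6 alternatives, among them without the second culture with TNC. Usp18 gained one under 2, among them without the first with no addition, and Eif2ak2 and Epsti1 under 1 each. Further probe sets of Dhx58 and Adar had the opposite sign. Eif2ak2, the kinase PKR that halts translation, changed by 0.18 (SE 0.13, adjusted p = 0.293). Ifi27 had the smallest change, 0.06 (SE 0.086, adjusted p = 0.633), and its arrays overlapped.

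Across the 4 treatments the means of the log2 signals fell into few orders. In 25 genes the order from high to low was TNF, both, no addition, TNC. In 11 genes TNC stood above no addition: Oas2, Oas3, Zbp1, Mx1, Mx2, Uba7, Parp9, Dtx3l, Parp14, Isg20 and Bst2. Of these 11 only Mx1, Isg20 and Dtx3l passed the test of TNC against no addition. Ifi27 alone had the order both, no addition, TNC, TNF, and its first pair of levels did not differ beyond their spread.

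Replicate cultures of one treatment also differed from each other in these genes. With no addition, the first culture had the highest signal in 32 of the 37 genes and the second the lowest in 32. Over all genes tested those shares were 36.1% and 35.1%. With TNC, the second culture was highest in 26 and the first lowest in 24, and with both additions the fourth was highest in 26. The all-gene shares for these were 29.6%, 23.6% and 29.1%. The median SD on the log2 scale was 0.22 for the 37 genes and 0.13 for all genes with no addition, 0.23 and 0.16 with TNC, 0.17 and 0.18 with both, and 0.06 and 0.13 with TNF. The genes were thus closer between cultures with TNF than without it, as a description with no test.

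Genes of the interferon pathway itself were counted from lists of ligands, receptors, kinases, transcription factors, sensors and feedback genes. Of 8 interferon genes on the array 3 passed the filter on dim genes, and none was called in TNF without TNC. The shares of all genes called there were 14.3% higher and 20.3% lower. Ifnb1, interferon beta, read 36.9, 39.7 and 37.4 with no addition, 83.6, 100.4 and 68.9 with TNF, 55.9, 49.1, 12.5 and 35.3 with TNC and 42.6, 38.3, 26.2 and 38.8 with both. All its arrays with TNF alone lay above the others, at signals near background. TNF without TNC changed it by 1.14 (SE 0.45, adjusted p = 0.0715), and TNC under TNF by −1.22 (SE 0.42, adjusted p = 0.0493). Ifne, Ifnk, Ifnl2 and Ifnl3 are not analysed here.

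The receptor genes followed another order. TNF without TNC raised 5 of 6 (14.3% of all genes), and TNC without TNF raised 5 of 6 (16.1%). TNC under TNF raised 2 and lowered none of the 6, against 16.3% and 11.9% of all genes, and with only 6 genes no result is read from these counts. Ifnar2, a chain of the receptor for interferons alpha and beta, read 2341, 2262 and 2412 with no addition, 6993, 6708 and 6893 with TNF, 6370, 5542, 6087 and 5619 with TNC and 9020, 8414, 8132 and 8424 with both. It was highest with both additions, as was Ifnar1. The kinase Jak2 was also highest with both, at 5775 to 6651 against 897 to 1033 with no addition, and TNC under TNF raised it by 0.48 (SE 0.066). All 3 kinases rose with TNF, against 14.3% of all genes. TNC under TNF raised only Jak2 of the 3 and lowered none, against 16.3% and 11.9%.

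Of 8 transcription factors TNF without TNC raised 7 and lowered Irf3, against 14.3% and 20.3% of all genes. TNC under TNF lowered 6 and raised none, against 11.9% and 16.3%. Irf7 read 524, 263 and 423 with no addition, 7779, 7474 and 7234 with TNF, 244, 370, 323 and 288 with TNC and 850, 1594, 849 and 1090 with both. Its change was 4.27 (SE 0.28) with TNF and −2.82 (SE 0.26) with TNC under TNF. Irf1 read 752 to 845 with no addition, 6356 to 6433 with TNF, 1372 to 1473 with TNC and 3465 to 3854 with both. It rose by 3.02 with TNF, and TNC changed it by 0.85 without TNF and by −0.77 under TNF. For Irf2 the changes were 1.05 with TNF and −0.58 with TNC under TNF. Stat2 and Irf9, of the complex that binds the response element and chosen here with their values known, changed by 2.39 and 0.87 with TNF and by −1.78 and −0.68 with TNC under TNF.

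Of 10 genes of the sensing arm, TNF without TNC raised 7 and lowered 1, against 14.3% and 20.3% of all genes. TNC under TNF lowered 5 and raised 2, against 11.9% and 16.3%, so the raised share was near that of all genes. Tlr3, the endosomal sensor of viral RNA, changed by 2.82 with TNF and by −1.53 with TNC under TNF. Sting1, the adaptor of DNA sensing, was raised by TNF (2.04) and by TNC (1.67), while TNC under TNF changed it by −0.56. Ikbke, a kinase that activates Irf3 and Irf7, was raised by both factors, by 1.67 and 1.31, and TNC under TNF changed it by 0.12 (adjusted p = 0.551). Among 4 feedback genes TNF without TNC raised 2, Socs1 and Socs3, and lowered none, against 14.3% and 20.3% of all genes. TNC under TNF lowered 1 of the 4, Pias1, and raised none, against 11.9% and 16.3%. Socs3, an inhibitor of receptor signalling, was highest with TNC alone, at 3433 to 3986 against 735 to 844 with no addition, 1857 to 2118 with TNF and 1274 to 1906 with both.

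In the aorta each value is a single pool on a single array, so differences carry no error and no test. In bulk tissue fewer cells of a type and less RNA per cell cannot be told apart. Genes were counted as higher or lower at 2-fold or more where at least 1 of the 2 arrays reached the 50th percentile of probe sets, 119.3 to 134.5 here.

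In infrarenal aorta, the segment that had received CaCl2, CaAngII pools read at least 2-fold higher than untreated pools for 30 of 37 genes in WT and for 27 of 37 in TNC-KO, and lower for none. Over all genes 10.6% were higher and 7.05% lower in WT, and 11.1% and 6.34% in TNC-KO. The median log2 ratio of the 37 genes was 1.67 in WT and 1.24 in TNC-KO, and that of all genes 0.00 and 0.07. Mx1 had the highest ratio in WT, at 1082 against 94.1 (11.5-fold). The WT ratios of Adar, Mx2, Ube2l6, Isg20, Trim21 and Ifi35 stayed under 2-fold. In TNC-KO this was so of Ifit2, Ifih1, Adar, Ube2l6, Cmpk2, Dtx3l, Samd9l, Trim21 and Ifi35. Ifi27 was again opposite, at 5199 against 8809 in WT and 6119 against 8260 in TNC-KO, both short of 2-fold.

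By role, the infrarenal ratios of the OAS family were among the highest. Their log2 values ran from 1.96 for Oasl1 to 3.37 for Oas2 in WT, and from 1.44 to 2.80 for the same genes in TNC-KO. Of the IFIT genes, Ifit1 read 296 untreated and 2639 with CaAngII in WT, and 395 and 1850 in TNC-KO. Ifit2 read 591 and 1873 in WT, and 702 and 1155 in TNC-KO, so that it passed 2-fold in WT only, and the difference between genotypes was not tested. Among the sensors Zbp1 read 117 and 992 in WT, and 120 and 710 in TNC-KO. Usp18 led the ISG15 system, at 370 and 2004 in WT and 340 and 1397 in TNC-KO, while Ube2l6 stayed near its untreated level, at 378 and 455 and at 352 and 355. The ADP-ribosylation genes lay near the 2-fold line in TNC-KO, with log2 ratios from 0.91 for Dtx3l to 1.23 for Parp14. Bst2 read 803 and 3364 in WT, and 890 and 2346 in TNC-KO. Lgals3bp read 1472 and 5916 in WT, and 1490 and 4995 in TNC-KO. Rsad2, second among the 37 genes by its TNF change in the cells, had log2 ratios of 1.34 in WT and 1.05 in TNC-KO.

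In suprarenal aorta of WT mice 4 of the 35 genes above the percentile were at least 2-fold higher with CaAngII, namely Oas2, Oasl2, Dhx58 and Rsad2, and Epsti1 was lower. The shares of all genes were 1.22% higher and 2.39% lower. In TNC-KO mice 2 of 35 were higher, Rsad2 and Isg20, and Epsti1 was lower, against 3.59% and 1.55% of all genes. Oas3 was left out of both counts, at 31.2 and 36.9 in WT and 19.0 and 76.1 in TNC-KO, all under the percentile. The medians over these 35 genes were 0.36 in WT and 0.14 in TNC-KO. For Dhx58, a regulator of RNA sensing, the mean of all probe sets gave a WT log2 ratio of −0.60 in place of 1.51.

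Oas2 had the largest sum of absolute log2 ratios over the 4 pairs of untreated and CaAngII pools. In suprarenal aorta it read 110 untreated and 273 with CaAngII in WT, and 234 and 465 in TNC-KO. In infrarenal aorta it read 137 and 1422 in WT, and 144 and 1005 in TNC-KO. Oasl2 read 365 and 738 in WT and 516 and 933 in TNC-KO suprarenal aorta, and 366 and 2407 and then 295 and 1866 in infrarenal aorta. Both genes were higher with CaAngII in all 4 pairs, and the infrarenal CaAngII pools were highest. Oas3 and Dhx58 had, with Oas2, the largest sums over the 4 genotype pairs. Dhx58 read 57.6 and 164 in WT and 114 and 182 in TNC-KO suprarenal aorta, and 109 and 569 and then 70.2 and 374 in infrarenal aorta. Oas3 read 44.6 and 227 in WT and 26.5 and 145 in TNC-KO infrarenal aorta.

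**Figure D4:**
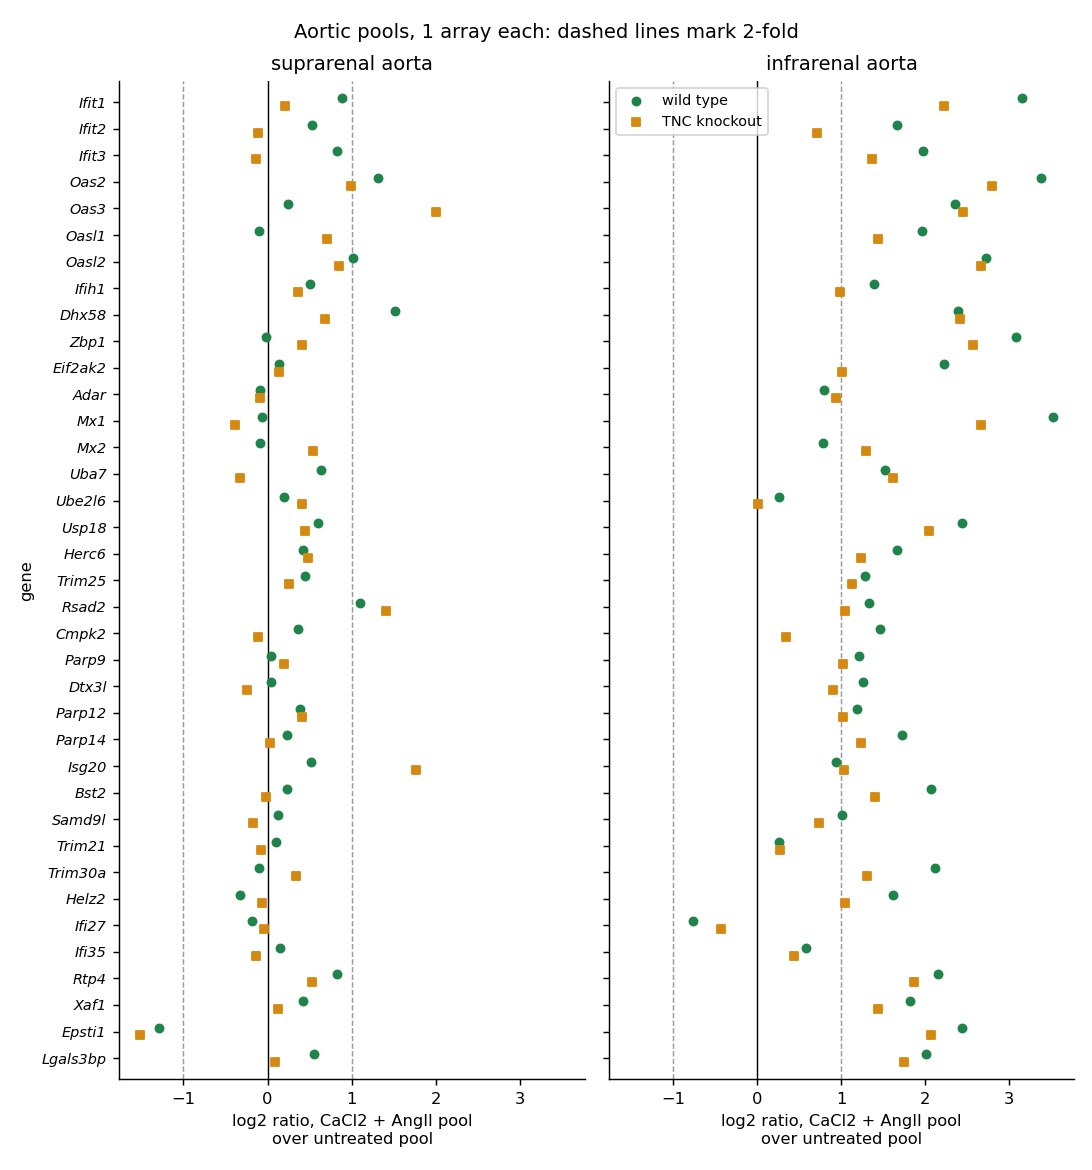
Log2 ratio of the CaAngII pool over the untreated pool for each of the 37 genes, in suprarenal (left) and infrarenal aorta (right), with WT as green circles and TNC-KO as orange squares. Each point compares 1 array with 1 array. Most infrarenal points lie right of the upper 2-fold line, while most suprarenal points lie between the lines. Epsti1 is left of the lower line in suprarenal aorta only.

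Epsti1, a gene of epithelial and stromal interaction that is also abundant in immune cells, was the one gene with opposite ratios of 2-fold or more in the 2 segments. In suprarenal aorta it read 1239 untreated and 508 with CaAngII in WT, and 1396 and 490 in TNC-KO. In infrarenal aorta it read 387 and 2099 in WT, and 416 and 1745 in TNC-KO. The summed signal of 7 lymphocyte markers ran alongside, with 3656, 526.7, 4831 and 642.7 in the same suprarenal pools and 869.3, 2589, 875.3 and 1686 in the infrarenal pools. On the cell arrays, where 6 of those 7 markers were at or below the 30th percentile on at least 1 array of each group, Epsti1 read 6.21 to 112. Of the 7 markers 6, 4, 6 and 5 lay above that percentile in the suprarenal pools and 5, 6, 5 and 6 in the infrarenal pools, and Cd4 in none. The pattern was not particular to lymphocyte markers. Irf8 read 925.1, 380, 1000 and 415.7 in these suprarenal pools and 258.3, 1650, 256.1 and 1300 in the infrarenal ones. Ptprc, Siglech and Ccr9 had the same directions. Tcf4 rose with CaAngII in WT suprarenal aorta, and the macrophage sum, given next, rose in suprarenal aorta of both genotypes. The part of lymphocytes or other leukocytes in the aortic levels of Epsti1 was not tested.

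**Figure D5:**
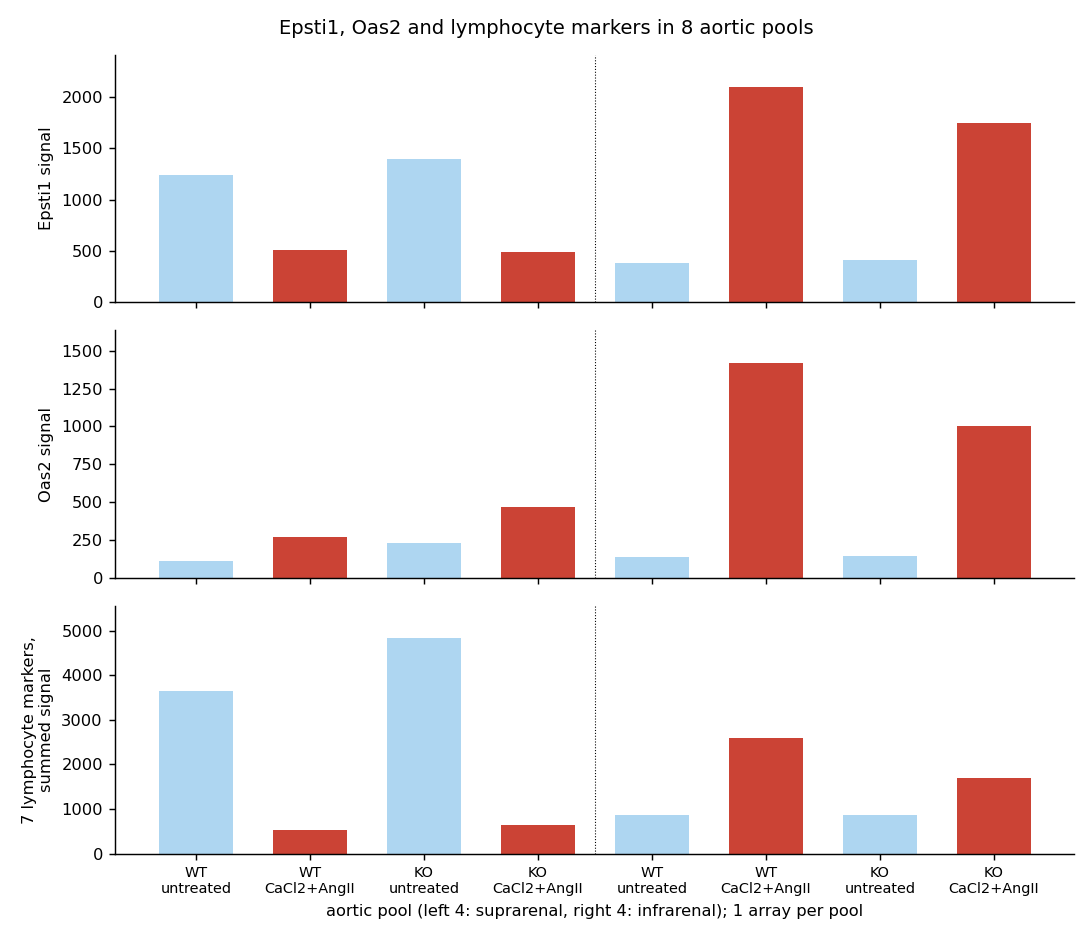
Signal of Epsti1 (top) and Oas2 (middle) and summed signal of 7 lymphocyte markers (bottom) in the 8 aortic pools, 1 array each, untreated in light blue and CaAngII in red. Epsti1 and the lymphocyte markers are lower with CaAngII in suprarenal aorta and higher in infrarenal aorta. Oas2 is higher with CaAngII in both.

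Macrophage markers were higher in the same infrarenal pools. All 12 lay above the 30th percentile in both infrarenal CaAngII pools, and 11 in the untreated ones, where Trem2 did not. Their summed signal was 29020 untreated and 95120 with CaAngII in WT, and 24210 and 98250 in TNC-KO. In suprarenal aorta it was 35950 and 37830 in WT, and 33190 and 49830 in TNC-KO. Their part in the higher signal of the 37 genes was not tested. Irf7 read 314 and 1853 in WT and 312 and 1309 in TNC-KO infrarenal aorta, while Ifnb1 read 52.0 to 77.1 over the 8 pools, below the 50th percentile in each.

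In infrarenal aorta with CaAngII no gene of the 37 differed by 2-fold between TNC-KO and WT, against 0.574% of all genes higher and 0.599% lower. The ratios were nevertheless mostly on one side, with 35 of the 37 genes lower in TNC-KO and only Ifi27 and Trim25 above. Over all genes 6443 of 11677 were above. In the suprarenal pools, given next, most of the genes lay on the other side. The median log2 ratio was −0.36, from −0.74 for Oasl1 to 0.24 for Ifi27, against 0.03 over all genes, or −0.29 and 0.09 with median centring. Oas2 read 1005 in TNC-KO and 1422 in WT, Oas3 145 and 227, and Dhx58 374 and 569. The macrophage sum was 98250 in TNC-KO and 95120 in WT, and the lymphocyte sum 1686 and 2589.

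In untreated suprarenal aorta Oas2 was at least 2-fold higher in TNC-KO, at 234 against 110, among 34 genes above the percentile. The shares of all genes were 0.583% higher and 1.28% lower. Of the 34 genes 29 read higher in TNC-KO, and of all genes 6234 of 11841. Their median log2 ratios were 0.24 and 0.02. In suprarenal aorta with CaAngII Isg20 was at least 2-fold higher in TNC-KO, at 1018 against 445, among 35 genes, where 2.52% of all genes were higher and 0.336% lower. Of these 35 genes 25 read higher in TNC-KO, and of all genes 5096 of 11907, with median log2 ratios of 0.06 and −0.04. Oas3, below the percentile there, read 76.1 and 36.9. The summed signal of 4 neutrophil markers was 33670 in that TNC-KO pool, with 3 above the 30th percentile, and 810.4 in the WT pool, with 2 above it. Its part in the Isg20 level was not tested. In untreated infrarenal aorta none of 33 genes differed by 2-fold, against 1.03% of all genes higher and 0.671% lower. Of the 33 genes 19 read higher in TNC-KO, with a median log2 ratio of 0.02. Dhx58 read 70.2 in TNC-KO and 109 in WT there, and 114 and 57.6 in untreated suprarenal aorta.

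Between segments few of these genes reached 2-fold without treatment. In untreated WT aorta Isg20 and Rsad2 were at least 2-fold higher in the infrarenal segment and Epsti1 lower, among 35 genes, with 1.96% and 7.58% of all genes. In untreated TNC-KO aorta Isg20 was higher and Epsti1 lower, among 34 genes, with 3.09% and 9.78%. With CaAngII 27 of 37 genes were higher in the infrarenal segment of WT mice and none lower, against 9.51% and 11.2% of all genes. In TNC-KO mice 16 of 37 were higher and none lower, against 6.79% and 9.34%. The pools of these comparisons are the same arrays as those above.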

How the data were processed

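RNA abundance was measured on Mouse Genome 430 2.0 arrays. The authors deposited 1 intensity per probe set and array on a linear scale. Per the submitters' processing notes the software was Affymetrix Expression Console, whose version, algorithm and settings the labels do not state. The mean of the middle 96% of the 45101 deposited intensities is 499.8 to 499.9 on every array, so arrays share a mean scale but not a distribution. Their number limits the precision.

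Intensities were used on the log2 scale without a pseudocount, with 1 probe set per gene, for genes at or above the 30th percentile in at least 3 of 14 cell arrays. A single limma model (version 3.58.1, under R 4.3.3) held the 14 cell arrays, leaving 10 residual degrees of freedom, and p-values were adjusted by Benjamini and Hochberg over 15534 genes. Aortic pools were compared as log2 ratios without a test. Comparisons that share a group are not independent. Promoter sequences are RefSeq's, build GRCm38.p6.

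The labels' titles of the TNC group read as TNC or TNF and its treatment label as exogenous TNC, which was followed. The stated TNF time is 24 h in the design text, while the labels count 23 to 36 h over the cell arrays and were not used. Replicate numbers did not pair arrays, since the 19 same-numbered pairs correlated at −0.016 to 0.057 after group means were removed.

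The members and lists were chosen with earlier results of these data known. Values on every array are given for the brightest gene of each role class, the largest and smallest change of each comparison and genes called against the majority, and in the aorta for the 3 genes with the largest summed ratios by treatment and by genotype. Up to 3 genes per pathway list, those with the lowest adjusted p, are named. Alternatives were another scaling, pseudocount, filter, probe set rule or variance model, a replicate block, and leaving out each array.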

Additional observations from a re-analysis of the deposited data

Results flagged for a closer look

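The effect of TNF differed between cells with and without TNC, by the interaction term of the limma fit with an adjusted p under 0.05, in 30 of the 37 genes. The difference on the log2 scale was −3.36 for Ifit2, −2.89 for Oas2, −3.57 for Oas3, −1.95 for Oasl1 and −1.69 for Oasl2. Among sensors it was −1.60 for Ifih1, −1.98 for Dhx58, −4.59 for Zbp1 and −1.21 for Eif2ak2. It was −4.12 for Mx1 and −2.17 for Mx2, and −1.70 for Rsad2 and −2.12 for Cmpk2. In the ISG15 system it was −1.77 for Uba7, −1.26 for Ube2l6, −1.72 for Herc6 and −0.95 for Trim25. The ADP-ribosylation genes had −1.67 for Parp9, −2.07 for Dtx3l, −1.47 for Parp12 and −1.98 for Parp14. The other effectors had −3.04 for Isg20, −0.96 for Bst2, −0.99 for Samd9l, −1.11 for Trim21, −1.85 for Trim30a and −1.34 for Helz2. Lastly it was −0.84 for Ifi35, −0.69 for Lgals3bp and, in the opposite direction, 1.91 for Ifi27.

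A single culture stood apart from the other 3 of its treatment, by Dixon's gap at the 95% level, in 6 of 74 tests. Chance gives about 1 in 20 for independent tests, but these tests share the same cultures, so the count is a description only. With TNC alone these were the low signals of Dhx58 (72.7) and Bst2 (6325) in the first culture and of Uba7 (375.4) in the third. With both additions they were the high signals of Mx2 (204.8), Herc6 (1835) and Parp14 (1474), all in the fourth culture.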

How the results depend on the processing

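With TNF alone against no addition, the 37 genes kept direction and call under all 22 alternatives. TNC alone was least stable. Of the 37 genes 5 were called higher with quantile normalization and 6 with median centring, 5 were called lower with centring and 7 with the replicate block, and leaving out an array gave 3 to 5 higher and 6 to 13 lower. The number of genes called in the interaction was 2923, and 1905 with the mean of all probe sets. In TNC-KO against WT untreated suprarenal aorta 2 genes were at least 2-fold higher with that mean and 0 after 32 was added. With CaAngII the suprarenal count was 3 with that mean and 2 with no filter. In untreated infrarenal aorta 1 was higher with that mean, and 1 was lower with quantile normalization and 1 with centring. Infrarenal against suprarenal, the mean of probe sets gave 2 lower in untreated WT, 1 lower in WT with CaAngII and 2 higher in untreated TNC-KO. Centring gave 1 lower in WT with CaAngII and 2 lower in untreated TNC-KO. With the mean of probe sets the CaAngII log2 ratio became −0.60 for Dhx58 in WT suprarenal and −0.12 for Eif2ak2 in TNC-KO infrarenal aorta. The causes were not tested. Same-numbered cultures correlated at −0.016 to 0.057, so the replicate block pairs nothing and its values serve as an alternative only. Centring moved the all-gene median from −0.06 to 0.15 in both additions against none, and from 0.07 to 0.20 in TNC-KO infrarenal CaAngII. Signals near background limit Zbp1, Oas3, Epsti1 and Ifnb1, and single pools limit the aorta.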

Other observations

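Ifi27l2a, a neighbour in name of Ifi27 that is not among the listed genes and was chosen after its values were seen, went the way of the majority. With TNF alone it changed by 3.43 on the log2 scale (SE 0.38, limma adjusted p = 2.93e-05), and TNC under TNF changed it by −3.33 (SE 0.36, adjusted p = 5.28e-05). For Ifi27 the same comparisons gave −1.58 and 1.64. No test of the difference between the genes was made.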
